A study of Mus musculus with 24 samples.

Results

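The genes described here are the 37 mitochondrially encoded genes of the mouse, taken as every entry of the deposited table whose symbol starts with mt-, of 33034 genes in all. They are 13 protein-coding genes, 2 rRNA genes and 22 tRNA genes, and each lies on the mitochondrial chromosome (MT). The 24 libraries are from MOVAS, a line of smooth-muscle cells of mouse aorta, and form 8 groups of 3. The groups come from 4 backgrounds, each given vehicle or rhCTHRC1, which is recombinant human CTHRC1, a secreted protein with a collagen-like triple-helix repeat. The backgrounds are WT (unedited cells), ADAM9i (unedited cells given an inhibitor of the membrane metalloprotease ADAM9), Rosa26-KO (cells edited at Rosa26, a locus commonly edited as a control) and Adam9-KO (cells edited at Adam9). Which inhibitor was used, at which dose and for how long, is not in the labels, nor is whether an edited line is 1 clone or each replicate a culture of its own. All p-values therefore measure the spread between these libraries, which may be technical. Titles of the WT libraries carry letters that the other titles lack, so a difference of handling between WT and the other backgrounds cannot be told apart from the background.

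Mitochondrial DNA is a small circle that is transcribed from both strands into long precursors by a dedicated RNA polymerase, Polrmt, with the factors Tfam and Tfb2m. In most places a tRNA sits between neighbouring rRNA or protein-coding genes, and enzymes that cut out the tRNAs release the other RNAs. The steady level of each mRNA then depends on stabilising and degrading factors, among them the nuclear-encoded protein Lrpprc. The proteins are subunits of respiratory complexes I, III and IV and of ATP synthase, and all other subunits of these complexes come from nuclear genes. No tRNA gene lies between mt-Nd4l and mt-Nd4 or between mt-Atp8 and mt-Atp6, and each pair overlaps on the same strand. The members of such a pair may share an mRNA, which was not tested. All mRNAs below are counted by gene, so members of a pair cannot be taken as independent.

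The layout decides what a count at these genes can mean. The stretch that joins the end of mt-Rnr2, mt-Tl1 and the start of mt-Nd1 is shown because these 3 genes of 1 precursor had unlike changes. It runs 5′ to 3′ on the plus strand of MT (GRCm38, GENCODE M21 transcripts joined in order), with the whole of mt-Tl1, the leucine tRNA gene, in capitals and no base between the genes.
MT:2652-2774: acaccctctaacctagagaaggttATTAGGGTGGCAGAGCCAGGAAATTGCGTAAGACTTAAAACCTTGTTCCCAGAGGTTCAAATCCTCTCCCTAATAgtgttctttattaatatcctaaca
The overlap of the ATP synthase genes is shown because it bears on the most variable of the mRNA genes. This is the whole of mt-Atp8, 204 bases, and the capitals mark the 43 bases that are also the start of mt-Atp6 on the same strand.
mt-Atp8, MT:7766-7969: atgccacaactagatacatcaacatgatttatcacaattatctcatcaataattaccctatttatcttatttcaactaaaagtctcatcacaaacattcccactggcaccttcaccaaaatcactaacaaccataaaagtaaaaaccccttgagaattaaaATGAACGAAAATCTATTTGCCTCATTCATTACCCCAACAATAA
A count in those 43 bases cannot be assigned to one of the overlapping genes, and how the authors treated such reads is not given in the sources used here.

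Part of this sequence also exists in the nuclear genome, on chromosome 1 from 24611535 to 24616197 (minus strand, GRCm38). There, 7 genes annotated as unprocessed pseudogenes match MT from 6390 to 11042, with 2 substitutions over 4140 aligned bases. Counted from 1 at each gene's 5′ end, they are T3C in mt-Nd3 (copy Gm28438) and A1066T in mt-Co1 (copy Gm29216), each with the mitochondrial base first. The start of mt-Nd3 and of its copy is shown with that base in capitals.
mt-Nd3, MT:9459-9500: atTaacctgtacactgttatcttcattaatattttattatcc
Gm28438, 1:24613078-24613119 (minus strand): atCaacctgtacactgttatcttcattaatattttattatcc
Over the 24 libraries the copies held nearly as many counts as the genes they match: Gm28437 had 99.5 to 100.4 counts per 100 of mt-Co3, Gm28661 98.1 to 99.2 per 100 of mt-Co2, Gm10925 101.6 to 106.2 per 100 of mt-Atp6, Gm28438 100.7 to 105.2 per 100 of mt-Nd3, and Gm10222 98.3 to 100.1 per 100 of mt-Nd4l. Gm28439 had 35.0 to 47.1 per 100 of mt-Nd4, and Gm29216 6.36 to 7.81 per 100 of mt-Co1. The summed share of the copies was 0.755% to 1.02% of all counts. The copy covers 31.3% of mt-Co1 and 63.6% of mt-Nd4. Within the matched stretches, reads without one of the substituted bases cannot be told apart between MT and the copy, and how the authors handled reads with several matches is not given. These copies were chosen for their match in sequence. The rRNA genes mt-Rnr1 and mt-Rnr2 and the mRNA genes mt-Nd1, mt-Nd2, mt-Nd5, mt-Nd6 and mt-Cytb lie wholly outside the matched region.

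Each library held 53135752 to 65833125 counts in genes, of which 3.21% to 4.37% fell in mt- genes. Adam9 transcripts were lower under vehicle in Adam9-KO (130.1 to 149.8 TMM-scaled CPM over libraries) than in Rosa26-KO (228.9 to 241.3 CPM; log2 difference -0.78, adjusted p = 3.59e-08 in edgeR), but were not absent. In unedited ADAM9i cells Adam9 was also lower than in WT under vehicle (log2 difference -0.61, adjusted p = 0.00185 in edgeR). All 9 smooth-muscle markers listed had counts in every group, and their summed level was 307.6 to 755.8 CPM over libraries. Most of the sum was Acta2, Tpm2 and Smtn (means of 224.3, 67.5 and 68.5 CPM in WT vehicle). Myh11, Cnn1 and Myocd were low, with 0 to 51, 0 to 121 and 13 to 150 counts over the libraries. Marker levels in this paragraph are CPM by library size, without the TMM scaling used for Adam9. The summed level of the 9 was 336.0 to 396.7 CPM in WT vehicle and 313.5 to 318.8 CPM with rhCTHRC1, and 642.6 to 657.3 CPM and 307.6 to 310.8 CPM in Rosa26-KO. With rhCTHRC1 5 of the 9 rose and 3 fell in WT (median 0.96), and 3 rose and 4 fell in Rosa26-KO (median 0.28). Of all genes 32.2% rose and 30.8% fell in WT, and 22% rose and 23.3% fell in Rosa26-KO. Acta2, smooth-muscle actin, fell in both backgrounds: its mean was 224.3 CPM in WT vehicle and 52.0 CPM with rhCTHRC1, and 406.7 and 41.9 CPM in Rosa26-KO. Tpm2, a tropomyosin, rose in both, from 67.5 to 148.6 CPM in WT and from 123.4 to 157.8 CPM in Rosa26-KO. The summed level of 4 fibroblast markers was 47.4 to 53.1 CPM in WT vehicle, 327.5 to 351.6 CPM in WT with rhCTHRC1, 244.8 to 269.2 CPM in Rosa26-KO vehicle and 425.2 to 443.7 CPM in Rosa26-KO with rhCTHRC1. Most of this sum was Pdgfra alone, with means of 46.2 and 312.6 CPM in WT and 247.4 and 410.6 CPM in Rosa26-KO. In WT 4 of the 4 rose, and in Rosa26-KO 3 rose and 0 fell. Lum was lower there, at 0.643 and 0.462 CPM on average. Over all libraries summed endothelial markers were at 0.772 to 5.67 CPM, macrophage markers at 1.46 to 5.15, epithelial markers at 0 to 1.02 with all 4 at 0 in WT vehicle, and cardiac and skeletal muscle markers at 6.85 to 27.2. In WT endothelial markers went from 4.27 to 5.67 CPM with vehicle to 1.83 to 3.42 with rhCTHRC1. Macrophage markers went from 1.80 to 2.53 to 3.89 to 5.15, and the muscle markers from 6.85 to 7.11 to 11.9 to 13.15. In the other backgrounds the ranges of these 4 lists overlapped, apart from epithelial markers in Rosa26-KO (0.222 to 0.387 and 0.463 to 1.02). The part of these markers in the results below was not tested. In bulk samples fewer cells of a type and less RNA per cell cannot be told apart.

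With rhCTHRC1 the share of counts in the 13 mitochondrial mRNAs was higher in WT and in Rosa26-KO cells, without overlap of the libraries. In WT the share was 3.07%, 3.08% and 3.08% in the vehicle libraries and 4.09%, 4.10% and 4.16% with rhCTHRC1. Rosa26-KO libraries had 3.81%, 3.79% and 3.93% with vehicle and 3.97%, 4.13% and 4.24% with rhCTHRC1. In ADAM9i it was 3.76%, 3.67% and 3.90% with vehicle and 3.73%, 3.92% and 3.55% with rhCTHRC1, and in Adam9-KO 3.62%, 3.63% and 3.58% against 3.62%, 3.53% and 3.52%. The libraries of these last backgrounds overlap. The WT vehicle libraries had the lowest shares of all 24, and WT with rhCTHRC1 lay at the level of Rosa26-KO with rhCTHRC1. Shares here and below are of all counts, without TMM scaling. TMM factors were 0.953 to 0.958 in WT vehicle and 1.064 to 1.073 with rhCTHRC1, and 0.979 to 0.982 and 1.028 to 1.035 in Rosa26-KO. Scaling by them makes a rise with rhCTHRC1 smaller. After TMM scaling the median log2 change of the 13 mRNAs was 0.19 in WT and 0.03 in Rosa26-KO. Over all genes it was 0.03 in both backgrounds.

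The difference of the mean mRNA shares was 1.04 percentage points in WT (3.08% ± 0.00491 to 4.12% ± 0.0405, SD, n = 3 per group, exact permutation p = 0.1) and 0.270 in Rosa26-KO (3.85% ± 0.0779 to 4.12% ± 0.133, exact permutation p = 0.1). It was -0.0453 in ADAM9i (3.78% ± 0.115 to 3.73% ± 0.185, exact permutation p = 0.8) and -0.0542 in Adam9-KO (3.61% ± 0.0284 to 3.55% ± 0.0566, exact permutation p = 0.3). With 3 libraries against 3, a two-sided p cannot be below 0.1. Averaged over the 4 backgrounds the difference was 0.302 points, with p = 0.0192 in an exact permutation within backgrounds (adjusted over 3 such tests 0.0288). This average rests on WT: without the WT libraries it was 0.0568 points (exact permutation p = 0.384). With the genes that lie wholly outside the chromosome 1 copy, a choice made after seeing the data, the difference of the mRNA share was 0.378 points in WT (exact permutation p = 0.1) and 0.0782 in Rosa26-KO (exact permutation p = 0.2).

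The rRNA share was also without overlap in WT, at 0.129%, 0.123% and 0.134% with vehicle and 0.159%, 0.161% and 0.148% with rhCTHRC1. Rosa26-KO libraries had 0.102%, 0.101% and 0.101% with vehicle and 0.108%, 0.110% and 0.117% with rhCTHRC1. The WT libraries had the highest rRNA shares, with vehicle as with rhCTHRC1. In ADAM9i and Adam9-KO the treated and untreated libraries overlap, with mean differences of 0.00738 and 0.00263 points. Averaged over the backgrounds the difference was 0.0119 points (exact permutation p = 0.00416, adjusted 0.0125), and 0.00668 points without the WT libraries (exact permutation p = 0.0763). Whether and how rRNA was removed before sequencing is not given in the labels.

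The 22 tRNA genes held 0.0108% ± 0.000103 of counts in WT vehicle and 0.0154% ± 0.000259 in WT with rhCTHRC1 (SD, n = 3), again without overlap. In the other backgrounds the means were 0.0138% and 0.0141% (ADAM9i), 0.0163% and 0.0160% (Rosa26-KO), and 0.0135% and 0.0137% (Adam9-KO), and the libraries overlap. The average over the backgrounds was 0.00118 points (exact permutation p = 0.048, adjusted 0.048), and 5.12e-05 points without WT (exact permutation p = 0.908). With single libraries left out p was 0.0257 to 0.0874 (exact permutation). It stayed under 0.05 only without replicate 3 of ADAM9i vehicle, ADAM9i rhCTHRC1, Rosa26-KO vehicle or Adam9-KO rhCTHRC1, replicate 2 of either Adam9-KO group, or Rosa26-KO rhCTHRC1 replicate 1.

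**Figure D1:**
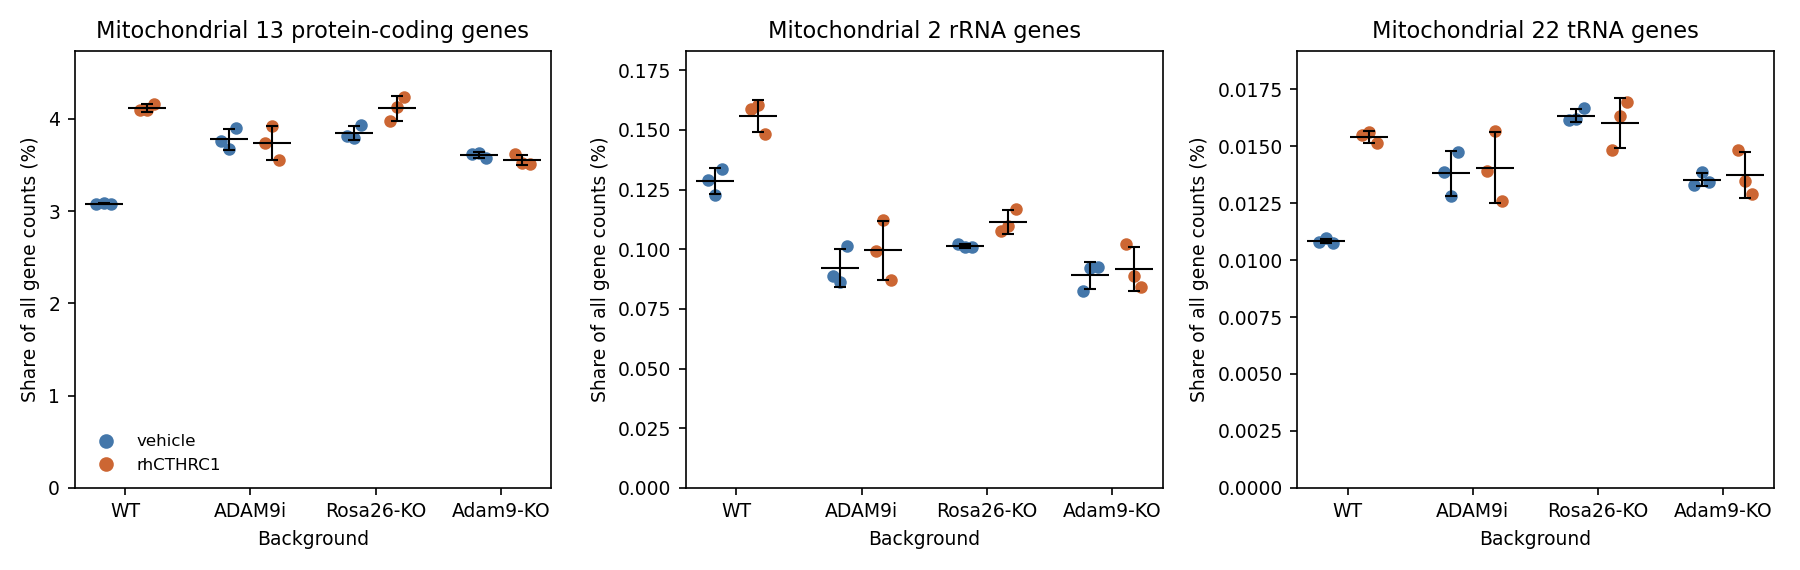
Share of all gene counts (%) in the 13 mitochondrial mRNAs, the 2 rRNAs and the 22 tRNAs, each point 1 library, by background and agent, with the mean (line) and SD (bars). WT vehicle lies at 3.07% to 3.08% in the mRNA panel, below all other libraries, while the treated WT and Rosa26-KO libraries reach 4.09% to 4.16% and 3.97% to 4.24%.

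By complex, the share of the 3 complex IV mRNAs was 1.51% ± 0.0138 in WT vehicle and 2.06% ± 0.0313 with rhCTHRC1, and 1.75% ± 0.0253 and 1.91% ± 0.0444 in Rosa26-KO. Complex III, with mt-Cytb alone, had 0.305% ± 0.00246 and 0.461% ± 0.00324 in WT, and 0.385% ± 0.00601 and 0.454% ± 0.00317 in Rosa26-KO. The 7 complex I mRNAs had 1.04% ± 0.0201 and 1.34% ± 0.00621 in WT, and 1.42% ± 0.0540 and 1.47% ± 0.0732 in Rosa26-KO. The ATP synthase mRNAs had 0.223% ± 0.00495 and 0.252% ± 0.0139 in WT, and 0.290% ± 0.0113 and 0.278% ± 0.0247 in Rosa26-KO. So in Rosa26-KO the libraries of complexes III and IV are apart, and those of complex I and ATP synthase overlap. In ADAM9i the vehicle and rhCTHRC1 means were 1.78% and 1.76% for complex IV, 0.394% and 0.382% for complex III, and 1.33% and 1.34% for complex I. In Adam9-KO they were 1.70% and 1.66%, 0.393% and 0.381%, and 1.30% in both groups for complex I. The ATP synthase means were 0.280% ± 0.0312 and 0.249% ± 0.0471 in ADAM9i, where the libraries overlap, and 0.211% in both groups of Adam9-KO.

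Levels can be compared between genes only per length, for which the deposited FPKM serve. FPKM are fragments per kilobase of gene, scaled to sequencing depth. In WT vehicle mt-Co1 was highest at 6787 FPKM ± 76.2 (SD, n = 3). After it came mt-Co2 (2658 ± 35.0), mt-Nd1 (2438 ± 38.0), mt-Cytb (2434 ± 12.1), mt-Atp8 (2339 ± 95.8) and mt-Atp6 (2288 ± 50.1). Of these neighbours mt-Nd1 and mt-Cytb, and mt-Atp8 and mt-Atp6, do not differ beyond their spread. Lower were mt-Co3 (1885 ± 14.9), mt-Nd5 (1581 ± 66.7), mt-Nd4 (1469 ± 33.1), mt-Nd6 (1315 ± 26.9), mt-Nd2 (1165 ± 55.5) and mt-Nd4l (933 ± 11.1), and mt-Nd3 was lowest with 177 ± 8.91. mt-Co1 held the first and mt-Nd3 the last place in every group, whereas mt-Atp8 held places 5 to 10. How reads that also match the copy on chromosome 1 move the places of the genes inside the matched region was not tested. The rRNAs were at 381 FPKM (mt-Rnr1) and 510 FPKM (mt-Rnr2). As removal of rRNA before sequencing is not described, these values may not give the rRNA level in the cells. Their order against the mRNAs can therefore not be read.

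In WT cells rhCTHRC1 was followed by higher levels of mRNAs of complexes I, III and IV, in Rosa26-KO cells by a mixed shift, and in ADAM9i and Adam9-KO cells by no called change. A gene is called here where its adjusted p is under 0.05 in edgeR's quasi-likelihood test over all genes. In WT, 8 of the 13 mRNAs rose and 0 fell, where 32.2% of all tested genes rose and 30.8% fell. In Rosa26-KO 5 rose and 1 fell, against 22% and 23.3% of all genes. The medians of the 13 log2 changes were 0.19 in WT and 0.03 in Rosa26-KO, with 0.03 over all genes in both.

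In ADAM9i cells 0 of 13 rose and 0 fell in edgeR, against 2.66% and 1.32% of all genes, with a median of -0.00. At an unadjusted p under 0.05, 2941 of all genes passed there, and DESeq2 called 1 of the 13 mRNAs. The share of all genes that DESeq2 called in ADAM9i is not given here. In Adam9-KO cells 0 of 13 rose and 0 fell in edgeR, where also 0% of all genes rose and 0% fell, with a median of 0.01. There 1387 genes passed an unadjusted p under 0.05, and DESeq2 called 10 genes higher and 23 lower in all, none of them among the 13 mRNAs.

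The WT result depends on the vehicle group used. The treated WT libraries were also set against the vehicle libraries of other backgrounds, values that also hold any difference of background or inhibitor. Against Rosa26-KO vehicle 2 mRNAs were higher (mt-Co1 by 0.20 and mt-Cytb by 0.13 on the log2 scale) and 7 were lower, among them mt-Nd1 (-0.38) and mt-Nd3 (-0.41). Against ADAM9i vehicle 2 were higher (mt-Co1 by 0.17 and mt-Cytb by 0.10) and 5 were lower, among them mt-Nd1 (-0.29). In these comparisons mt-Co1 and mt-Cytb were thus higher in treated WT cells than in each of the 3 vehicle groups used, while the direction of mt-Nd1, mt-Nd3 and mt-Co3 turned. Scaling also shifts all genes: with library size in place of TMM the median of all genes moved from 0.03 to 0.21 in WT and from 0.03 to 0.10 in Rosa26-KO, and 11 and 8 mRNAs were called. The shares of all genes called against the other vehicle groups or with library size are not given here. The counts of mRNAs in this paragraph can therefore not be weighed against them.

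**Figure D2:**
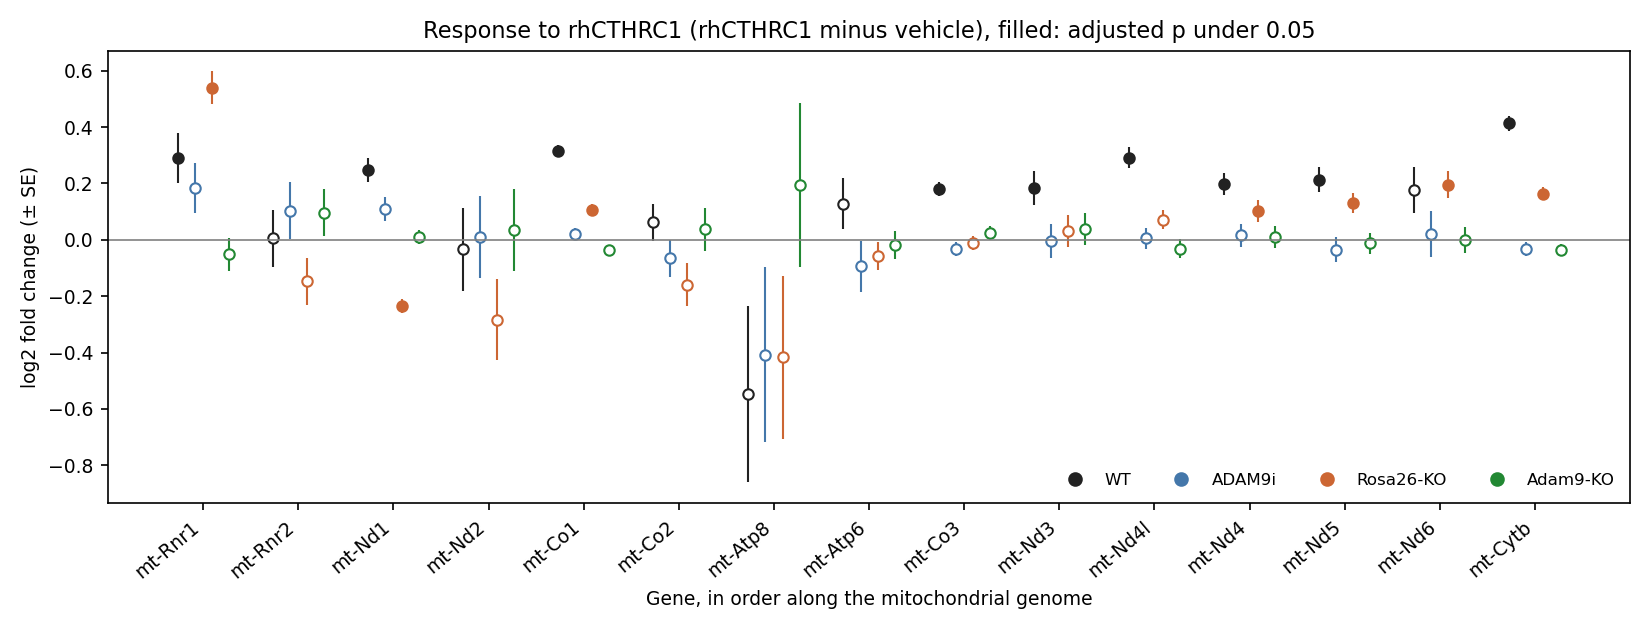
Log2 fold change with rhCTHRC1 (rhCTHRC1 minus vehicle, ± SE from edgeR) of the 2 rRNAs and 13 mRNAs in order along the mitochondrial genome, in 4 backgrounds, filled where adjusted p is under 0.05. mt-Cytb and mt-Co1 are filled above 0 in WT and Rosa26-KO, mt-Nd1 is filled on opposite sides of 0 in these backgrounds, and no ADAM9i or Adam9-KO point is filled.

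mt-Co1, the catalytic core of complex IV (cytochrome c oxidase), lies at MT 5328 to 6872. Its TMM-scaled CPM (counts relative to library size, adjusted between libraries) were 12226.7, 11954.5 and 11956.0 in WT vehicle and 15032.5, 15123.4 and 15290.7 with rhCTHRC1. In Rosa26-KO they were 13326.7, 12952.3 and 13322.1 with vehicle and 14014.0, 14333.2 and 14200.8 with rhCTHRC1. All treated libraries lay above all vehicle libraries of their background. The log2 change of mt-Co1 was 0.31 ± 0.022 (SE) in WT (adjusted p = 1.51e-10) and 0.10 ± 0.021 in Rosa26-KO (adjusted p = 0.000332). It was 0.02 in ADAM9i and -0.04 in Adam9-KO, where the libraries overlap.

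mt-Co3, a core subunit of complex IV, was at 1691.3, 1716.3 and 1686.3 CPM in WT vehicle and 1933.6, 1910.6 and 1993.1 CPM with rhCTHRC1. It rose by 0.18 ± 0.025 in WT (adjusted p = 3.26e-06), and was lower in treated WT cells than in Rosa26-KO vehicle (-0.10) or ADAM9i vehicle (-0.12). In Rosa26-KO mt-Co3 had -0.01 (adjusted p = 0.77), but 0.062 under scaling by library size alone, where it passed the threshold. mt-Co2, which carries the copper centre that takes electrons from cytochrome c, had 0.06 in WT and -0.16 in Rosa26-KO, neither past the threshold. Its libraries ran from 1916.2 CPM in Adam9-KO vehicle to 2712.2 CPM in Rosa26-KO vehicle.

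mt-Cytb, cytochrome b of complex III, lies at MT 14145 to 15288, outside the copied region. Its level was 3200.2, 3230.7 and 3166.4 CPM in WT vehicle and 4301.7, 4324.2 and 4299.1 CPM with rhCTHRC1. In Rosa26-KO it was 3989.3, 3873.8 and 3927.9 CPM with vehicle and 4451.3, 4378.5 and 4371.9 CPM with rhCTHRC1. The treated libraries of WT and Rosa26-KO lay above all vehicle libraries of the 4 backgrounds. mt-Cytb rose by 0.41 ± 0.026 in WT (adjusted p = 3.15e-11) and by 0.16 ± 0.022 in Rosa26-KO (adjusted p = 4.52e-06). In ADAM9i its libraries were at 4165.0, 3790.4 and 4020.7 CPM with vehicle and 3925.7, 3933.4 and 3855.3 CPM with rhCTHRC1, which overlap. In Adam9-KO they were at 3988.1, 3962.7 and 3820.0 CPM against 3819.8, 3831.8 and 3780.3 CPM, and the log2 change was -0.04 (adjusted p = 0.748).

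mt-Nd1, a membrane subunit of complex I, lies at MT 2751 to 3707, next to mt-Tl1, and moved in opposite directions. In WT it was at 2707.9, 2645.0 and 2685.9 CPM with vehicle and 3248.2, 3291.8 and 3112.9 CPM with rhCTHRC1. Rosa26-KO libraries were at 4217.3, 4187.2 and 4121.6 CPM with vehicle and 3515.4, 3500.2 and 3624.3 CPM with rhCTHRC1. Neither pair of groups overlaps. mt-Nd1 rose by 0.25 ± 0.043 in WT (adjusted p = 0.000203) and fell by 0.23 on the log2 scale, with an SE of 0.026, in Rosa26-KO (adjusted p = 3.91e-07). The treated WT level lay below all Rosa26-KO and ADAM9i libraries. In ADAM9i mt-Nd1 was at 3978.5, 3579.2 and 4127.1 CPM with vehicle and 4139.9, 4363.2 and 4104.9 CPM with rhCTHRC1, with a log2 change of 0.11 (adjusted p = 0.231). In Adam9-KO the change was 0.01.

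Of the other complex I mRNAs, mt-Nd5, mt-Nd4, mt-Nd4l and mt-Nd3 rose in WT. mt-Nd5, a large membrane subunit, was at 3169.2, 3426.6 and 3343.7 CPM in WT vehicle and 3919.9, 3750.3 and 3992.8 CPM with rhCTHRC1 (log2 change 0.21 ± 0.045, adjusted p = 0.00117). mt-Nd4, another membrane subunit, rose by 0.20 ± 0.040 (adjusted p = 0.000434) and mt-Nd4l, which overlaps mt-Nd4 by 7 bases, by 0.29 ± 0.038 (adjusted p = 1.61e-06). As mt-Nd4l and mt-Nd4 may share an mRNA, these rises cannot be taken as independent. The level of mt-Nd3 was 73.6, 73.0 and 66.2 CPM with vehicle and 84.4, 82.2 and 78.3 CPM with rhCTHRC1. Its rise of 0.19 ± 0.060 (adjusted p = 0.0119) missed the threshold without WT vehicle replicate 3, the lowest library (0.14, adjusted p = 0.0687). mt-Nd2 had -0.03 ± 0.146 in WT.

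In Rosa26-KO mt-Nd5 rose by 0.13 ± 0.037 (adjusted p = 0.007), from 3980.3, 3922.4 and 4312.1 CPM to 4277.4, 4452.2 and 4632.1 CPM, and these libraries overlap. Without Rosa26-KO vehicle replicate 1 it had 0.10 (adjusted p = 0.0569). mt-Nd6, which is coded on the opposite strand from the other mRNAs, rose by 0.20 ± 0.047 (adjusted p = 0.00264), from 972.9, 930.0 and 981.0 CPM to 1058.3, 1131.4 and 1110.8 CPM, without overlap. In WT mt-Nd6 was also without overlap (776.6, 806.0 and 769.3 CPM against 934.0, 915.0 and 841.0 CPM), but its change of 0.18 ± 0.081 missed the threshold (adjusted p = 0.0854). mt-Nd5 and mt-Nd6 overlap by 14 bases on opposite strands, and whether strand was used in counting is not given, so reads there cannot be told apart.

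mt-Nd4 rose by 0.10 ± 0.039 in Rosa26-KO (adjusted p = 0.0402), the highest adjusted p of the 6 mRNAs called there. It was lost in turn without each of the 3 vehicle libraries, rhCTHRC1 replicates 2 and 3, Adam9-KO vehicle replicate 3 and each of the 3 treated Adam9-KO libraries (0.07 to 0.11, adjusted p = 0.0525 to 0.191). mt-Nd4l had 0.07 (adjusted p = 0.0919), mt-Nd3 0.03 and mt-Nd2 -0.28 ± 0.144 (adjusted p = 0.153) there. The libraries of mt-Nd2, which overlaps mt-Tw by 2 bases, were spread within groups: 1732.8, 1954.9 and 2365.1 CPM in Rosa26-KO vehicle and 1428.4, 1525.5 and 2012.3 CPM with rhCTHRC1.

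The ATP synthase mRNAs were called in 0 of the 4 responses. mt-Atp6 codes for the subunit through which protons pass, and mt-Atp8 for a short subunit of the stator. mt-Atp8 was at 565.0, 524.7 and 554.6 CPM in WT vehicle and 374.6, 313.3 and 449.7 CPM with rhCTHRC1, without overlap, and had -0.55 ± 0.312 (adjusted p = 0.162). In Rosa26-KO it was at 592.7, 724.9 and 762.5 CPM against 378.1, 546.6 and 631.5 CPM (-0.42 ± 0.289, adjusted p = 0.294), and in ADAM9i at 480.6, 691.1 and 743.0 CPM against 457.7, 703.7 and 283.4 CPM (-0.41 ± 0.311, adjusted p = 0.641). In Adam9-KO the change of mt-Atp8 was 0.20. The coefficient of variation of mt-Atp8 within a group was 3.82% to 43.8% with a median of 23.3%, against medians of 1.05% for mt-Cytb and 1.70% for mt-Co1. A change of the size given could therefore not be called at this spread. mt-Atp6 had 0.13 ± 0.091 in WT (adjusted p = 0.258), -0.06 in Rosa26-KO, -0.09 in ADAM9i and -0.02 in Adam9-KO. As mt-Atp8 and mt-Atp6 overlap and may share an mRNA, these values cannot show that separate transcripts changed differently.

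mt-Rnr1, the rRNA of the small mitochondrial ribosomal subunit, rose in WT and in Rosa26-KO, while mt-Rnr2, the rRNA of the large subunit, was not called. mt-Rnr1 (MT 70 to 1024) was at 419.1, 407.1 and 429.1 CPM in WT vehicle and 539.6, 555.4 and 456.6 CPM with rhCTHRC1. In Rosa26-KO it was at 290.5, 256.5 and 256.1 CPM with vehicle and 404.4, 378.4 and 383.4 CPM with rhCTHRC1. Both pairs of groups are without overlap. The log2 change of mt-Rnr1 was 0.54 ± 0.059 in Rosa26-KO (adjusted p = 2.69e-06) and 0.29 ± 0.089 in WT (adjusted p = 0.017). In WT the call was lost without WT vehicle replicate 2 (0.28, adjusted p = 0.0530) and without rhCTHRC1 replicate 1 (0.27, adjusted p = 0.0505) or 2 (0.23, adjusted p = 0.0621). In ADAM9i mt-Rnr1 had 0.18 (adjusted p = 0.371) and in Adam9-KO -0.05. Whether removal of rRNA before sequencing differed between libraries is not known and was not tested.

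mt-Rnr2 (MT 1094 to 2675) was at 934.0, 880.8 and 967.3 CPM in WT vehicle and 953.0, 940.6 and 930.2 CPM with rhCTHRC1, a change of 0.00 ± 0.101. In Rosa26-KO it was at 752.5, 773.6 and 775.2 CPM with vehicle and 642.8, 682.5 and 749.9 CPM with rhCTHRC1, without overlap, and the change of -0.15 ± 0.084 missed the threshold (adjusted p = 0.194). In treated WT cells both rRNAs were higher than in the other vehicle groups: mt-Rnr1 by 0.95 and mt-Rnr2 by 0.30 on the log2 scale against Rosa26-KO vehicle, and by 1.03 and 0.45 against ADAM9i vehicle.

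Ratios within a library do not depend on scaling, and they show the unequal change directly. For 100 counts of mt-Rnr2 there were 34.9 ± 3.18 counts of mt-Rnr1 in Rosa26-KO vehicle and 56.5 ± 5.96 with rhCTHRC1, and 45.2 ± 0.956 and 54.9 ± 5.19 in WT (SD, n = 3). In ADAM9i there were 36.9 ± 1.69 and 39.3 ± 3.08, and in Adam9-KO 45.6 ± 3.62 and 41.0 ± 1.55. For 100 counts of mt-Cytb, mt-Nd1 had 106.2 ± 1.65 in Rosa26-KO vehicle and 80.6 ± 2.05 with rhCTHRC1, and 83.8 ± 1.65 and 74.7 ± 1.99 in WT. So mt-Nd1 was lower relative to mt-Cytb with rhCTHRC1 in both these backgrounds, although its own level moved in opposite directions. In ADAM9i this ratio was higher with rhCTHRC1 (97.5 ± 4.46 and 107.6 ± 2.91), and in Adam9-KO the libraries overlap (99.0 ± 1.98 and 102.3 ± 3.75). No test was run on the ratios. Uneven removal of the 2 rRNAs before sequencing cannot be told apart from a change of their ratio in the cells.

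**Figure D3:**
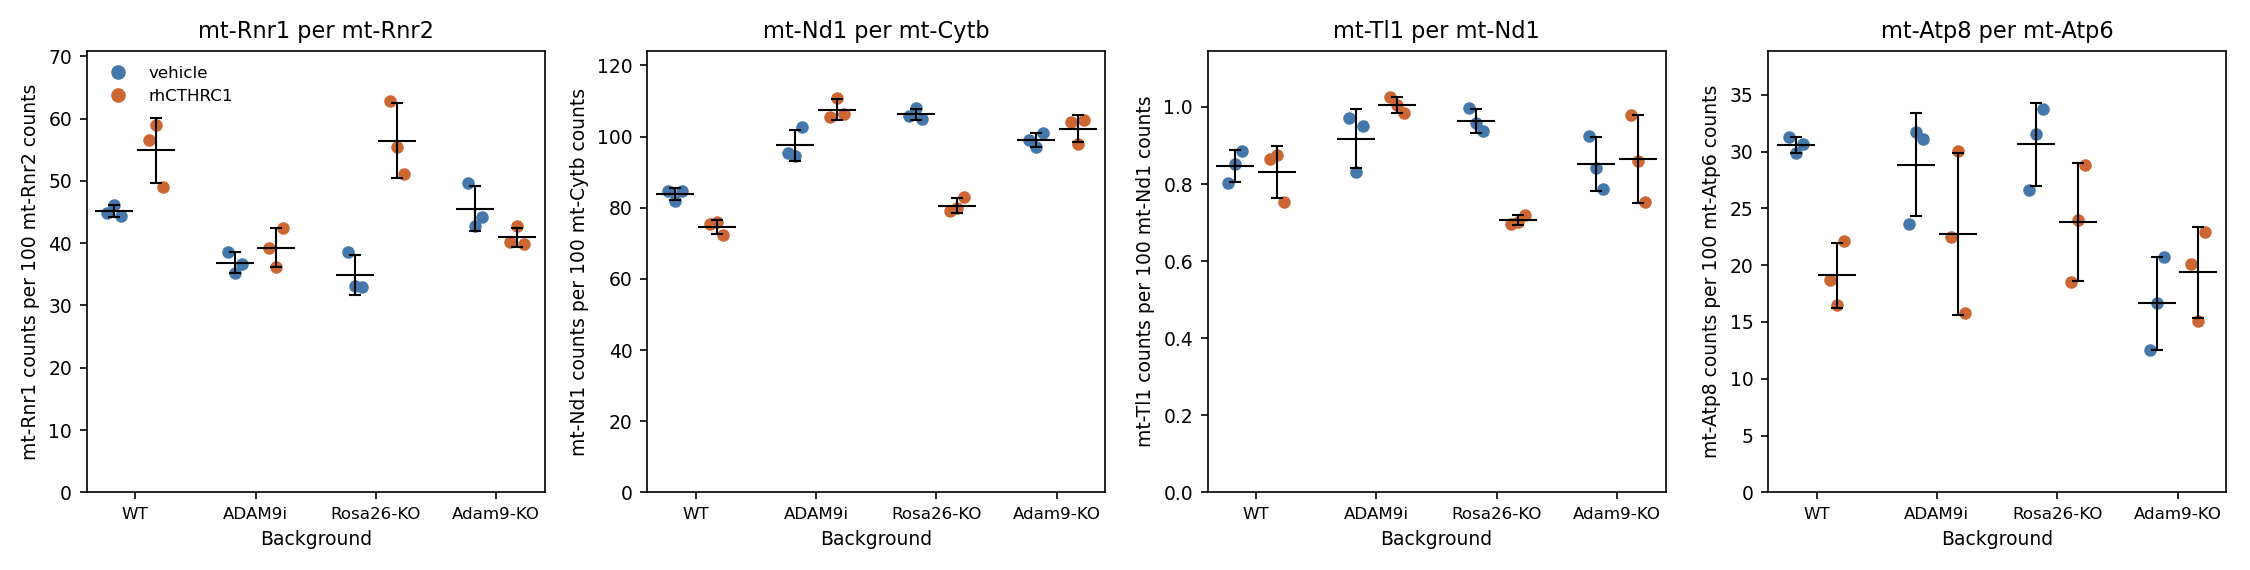
Counts of 1 mitochondrial gene per 100 counts of another in the same library, each point 1 library, by background and agent, with mean (line) and SD (bars). In Rosa26-KO, with rhCTHRC1 mt-Rnr1 per mt-Rnr2 lies higher and mt-Nd1 per mt-Cytb and mt-Tl1 per mt-Nd1 lie lower, each without overlap, while mt-Atp8 per mt-Atp6 is spread widely within groups.

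The tRNA genes are 59 to 75 bases long, and 4 of them, mt-Te, mt-Tl1, mt-Ts1 and mt-Tp (for glutamate, leucine, serine and proline), had the highest levels. Per the labels' protocols a read is longer than any of these genes, so that counts here cannot be told apart from those of precursors or of neighbouring RNA that reaches into the tRNA gene. In WT, 6 of the 20 tested tRNA genes rose and 0 fell, where 32.2% of all genes rose and 30.8% fell. In Rosa26-KO 1 rose and 4 fell of 18, where 22% of all genes rose and 23.3% fell. The rises in WT and the falls in Rosa26-KO were thus near the shares of all genes. In ADAM9i 0 of 20 were called, where 2.66% of all genes rose and 1.32% fell. In Adam9-KO 0 of 18 were called, where 0% of all genes rose and 0% fell.

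mt-Te was at 36.0, 35.5 and 34.3 CPM in WT vehicle and 49.4, 50.7 and 44.6 CPM with rhCTHRC1 (log2 change 0.43 ± 0.091, adjusted p = 0.000389). mt-Ts1 was at 23.3, 21.9 and 21.9 CPM against 29.9, 27.1 and 30.5 CPM (0.36 ± 0.070, adjusted p = 0.000146), and mt-Tp at 5.14, 5.96 and 5.90 CPM against 10.8, 10.7 and 8.55 CPM (0.81 ± 0.132, adjusted p = 2.45e-05). None of these groups overlap. mt-Tt, for threonine, rose from 0.202, 0.198 and 0.192 CPM to 0.595, 0.754 and 0.553 CPM (1.66 ± 0.383, adjusted p = 0.000865), with few counts in each library. mt-Tw, for tryptophan, rose by 0.75 ± 0.174 (adjusted p = 0.000901). mt-Ty, for tyrosine, rose by 0.44 ± 0.187 (adjusted p = 0.0484), and this call was lost without any 1 of 7 libraries (all 3 WT vehicle, WT rhCTHRC1 replicates 1 and 3, ADAM9i vehicle replicate 3 and ADAM9i rhCTHRC1 replicate 1; 0.35 to 0.51, adjusted p = 0.0507 to 0.168). Against Rosa26-KO or ADAM9i vehicle, mt-Tt had -0.60 and -0.31 and mt-Tw -0.46 and -0.34 in treated WT cells.

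mt-Tl1, the leucine tRNA gene printed above, was at 42.0, 40.1 and 38.6 CPM in Rosa26-KO vehicle and 24.5, 24.6 and 26.1 CPM with rhCTHRC1. It fell by 0.68 on the log2 scale, with an SE of 0.086 (adjusted p = 2.24e-06), next to mt-Nd1, which fell by 0.23, and to mt-Rnr2, which was not called. For 100 counts of mt-Nd1 there were 0.964 ± 0.0303 counts of mt-Tl1 with vehicle and 0.706 ± 0.0126 with rhCTHRC1. In WT mt-Tl1 was at 21.7, 22.6 and 23.8 CPM against 28.1, 28.8 and 23.5 CPM, with a change of 0.22 (adjusted p = 0.0503). In Rosa26-KO mt-Tw fell from 5.34, 4.75 and 5.18 CPM to 3.59, 3.24 and 3.44 CPM (-0.57 ± 0.143, adjusted p = 0.00291). mt-Tk, for lysine, fell from 1.002, 1.23 and 1.20 CPM to 0.404, 0.448 and 0.525 CPM (-1.31 ± 0.318, adjusted p = 0.00214).

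mt-Ty rose in Rosa26-KO from 4.73, 4.88 and 4.97 CPM to 6.73, 8.29 and 8.58 CPM (0.70 ± 0.144, adjusted p = 0.000541), as it did in WT. mt-Tt fell by 0.92 on the log2 scale, with an SE of 0.312 (adjusted p = 0.021), from 0.920, 0.888 and 1.07 CPM to 0.544, 0.525 and 0.446 CPM. This call was lost without Rosa26-KO vehicle replicate 3 (-0.85, adjusted p = 0.0638) or rhCTHRC1 replicate 3 (-0.84, adjusted p = 0.0690). So mt-Tw and mt-Tt, like mt-Nd1, rose in WT and fell in Rosa26-KO. Over all 24 libraries mt-Ts1 stayed at 0.177 to 0.212 counts per 100 of mt-Co1, the gene it overlaps by 3 bases on the opposite strand. For 100 counts of mt-Nd6, its neighbour on the same strand, mt-Te had 4.41 to 4.64 in WT vehicle and 5.29 to 5.54 with rhCTHRC1. In Rosa26-KO mt-Te went the other way, from 5.26 to 5.79 with vehicle to 4.89 to 5.06 with rhCTHRC1. In ADAM9i and Adam9-KO the libraries of this ratio overlap.

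Under vehicle the backgrounds differed in nearly all mitochondrial mRNAs where WT was involved. In ADAM9i 11 of 13 mRNAs were higher than in WT and 0 lower, where 29.9% of all genes were higher and 27.5% lower, with a median of 0.29 against 0.03 over all genes. In Rosa26-KO 12 of 13 were higher than in WT and 0 lower (all genes 27.9% and 25.8%), with a median of 0.30 against 0.03. mt-Nd1 was higher by 0.53 in ADAM9i (adjusted p = 1.4e-07) and by 0.64 in Rosa26-KO (adjusted p = 2.27e-14), mt-Nd3 by 0.36 and 0.61, and mt-Cytb by 0.31 and 0.30. The 2 rRNAs went the other way: mt-Rnr1 had -0.74 in ADAM9i (adjusted p = 4.85e-05) and -0.64 in Rosa26-KO (adjusted p = 1.81e-06), and mt-Rnr2 -0.45 (adjusted p = 0.0042) and -0.27 (adjusted p = 0.025). Both comparisons use the same WT vehicle libraries. For the rRNAs, uneven removal before sequencing cannot be told apart from a difference of level. In ADAM9i mt-Nd2 (0.39, adjusted p = 0.047) lost its call without any of the 6 WT libraries, ADAM9i vehicle replicate 2 or 3 or ADAM9i rhCTHRC1 replicate 1 (0.35 to 0.43, adjusted p = 0.0589 to 0.13), and mt-Atp6 (0.29, adjusted p = 0.0221) without any WT vehicle library or ADAM9i vehicle replicate 3 (0.23 to 0.30, adjusted p = 0.0520 to 0.0768). In Rosa26-KO mt-Rnr2 lost its call without any Rosa26-KO vehicle library or WT vehicle replicate 3 (-0.28 to -0.25, adjusted p = 0.0505 to 0.0705). The uncalled mRNAs were mt-Atp8 in both (0.21 and 0.34) and mt-Nd6 in ADAM9i (0.07, adjusted p = 0.51).

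Of the tRNA genes 9 of 20 tested were higher in ADAM9i than in WT under vehicle and 12 of 21 in Rosa26-KO, and 0 were lower. Of all genes 29.9% were higher and 27.5% lower in ADAM9i, and 27.9% and 25.8% in Rosa26-KO. The largest log2 differences between Rosa26-KO and WT lay in the cluster mt-Th, mt-Ts2 and mt-Tl2 (3.29, 3.07 and 3.16), genes chosen after their values were seen. Their counts were low, 4 to 78, 3 to 58 and 2 to 78 over the libraries, and their coefficients of variation within groups had medians of 35.4%, 42.3% and 50.5%. The cluster is shown because no base separates the 3 tRNA genes from one another or from mt-Nd5, and mt-Ts2 is in capitals.
MT:11546-11765: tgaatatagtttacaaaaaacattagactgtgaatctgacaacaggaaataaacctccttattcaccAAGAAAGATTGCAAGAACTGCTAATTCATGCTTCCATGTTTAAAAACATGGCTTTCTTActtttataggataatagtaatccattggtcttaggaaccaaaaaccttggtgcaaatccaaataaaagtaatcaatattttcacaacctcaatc
mt-Th, for histidine, was at 0.118, 0.083 and 0.077 CPM in WT vehicle and at 0.674, 0.823 and 1.27 CPM in Rosa26-KO vehicle, while mt-Nd5 downstream differed by 0.30.

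Adam9-KO had lower levels than Rosa26-KO under vehicle in 7 of 13 mRNAs and higher levels in 0, where 6.37% of all genes were higher and 8.83% lower, with a median of -0.14 against -0.00 over all genes. mt-Atp8 differed most (-1.21 ± 0.294, adjusted p = 0.0279), at 592.7, 724.9 and 762.5 CPM in Rosa26-KO and 217.3, 289.8 and 400.5 CPM in Adam9-KO, without overlap. This call was lost without any Rosa26-KO vehicle library or without Adam9-KO vehicle replicate 1 or 2 (-1.31 to -1.01, adjusted p = 0.0504 to 0.0956). mt-Atp6 was at 2224.9, 2299.6 and 2260.8 CPM in Rosa26-KO and 1731.0, 1742.1 and 1930.9 CPM in Adam9-KO (-0.34 ± 0.050, adjusted p = 0.000757). mt-Co2 was at 2442.4, 2516.1 and 2712.2 CPM against 1916.2, 2064.5 and 2125.1 CPM (-0.34 ± 0.076, adjusted p = 0.0166). Also lower were mt-Nd1 (-0.12, adjusted p = 0.00515), mt-Nd3 (-0.28, adjusted p = 0.00282), mt-Nd4 (-0.15, adjusted p = 0.0156) and mt-Co3 (-0.09, adjusted p = 0.0249). mt-Cytb had -0.01 and mt-Co1 -0.04, neither called. Of the 7 called, only mt-Nd1 lies wholly outside the region matched by the chromosome 1 copy. mt-Nd4 lies partly inside, and mt-Atp8, mt-Atp6, mt-Co2, mt-Nd3 and mt-Co3 lie inside. mt-Nd4l, also inside, was not called. Of 6 copies tested, 4 were also lower and 0 higher (median -0.30), and reads of gene and copy cannot be told apart there.

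The number of lower mRNAs in Adam9-KO fell to 3 without Adam9-KO vehicle replicate 1 and to 4 without Rosa26-KO vehicle replicate 3. mt-Co2 was then at -0.29 (adjusted p = 0.0667) and -0.30 (adjusted p = 0.0546), mt-Nd4 at -0.09 (adjusted p = 0.123) and -0.13 (adjusted p = 0.0716), and mt-Co2 also missed without Adam9-KO vehicle replicate 2 (-0.34, adjusted p = 0.0541). mt-Nd4 missed as well without Adam9-KO rhCTHRC1 replicate 3 (-0.15, adjusted p = 0.0604), and mt-Co3 without any Adam9-KO vehicle library or Rosa26-KO vehicle replicate 1 or 2 (-0.09 to -0.07, adjusted p = 0.0541 to 0.126). mt-Rnr2 was lower (-0.34, adjusted p = 0.026), and its call was lost without any Rosa26-KO vehicle library or Adam9-KO vehicle replicate 1 or 2 (-0.36 to -0.25, adjusted p = 0.0556 to 0.0875). Of 18 tested tRNA genes 9 were lower and 0 higher, where 8.83% of all genes were lower and 6.37% higher. Among the 9 were mt-Tl1 (-0.29), mt-Tw (-0.50) and mt-Ty (-0.63). mt-Tl1 lost its call without Rosa26-KO vehicle replicate 1 or 2 or Adam9-KO vehicle replicate 2 or 3 (-0.29 to -0.24, adjusted p = 0.0725 to 0.113), and mt-Tw without Rosa26-KO vehicle replicate 1 or 3 or Adam9-KO vehicle replicate 1 or 2 (-0.50 to -0.43, adjusted p = 0.0650 to 0.105). The tRNA genes mt-Ta, mt-Tn and mt-Tc of the strand opposite to mt-Nd2 and mt-Co1 had -0.89, -1.05 and -1.06, and were named after their values were seen.

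**Figure D4:**
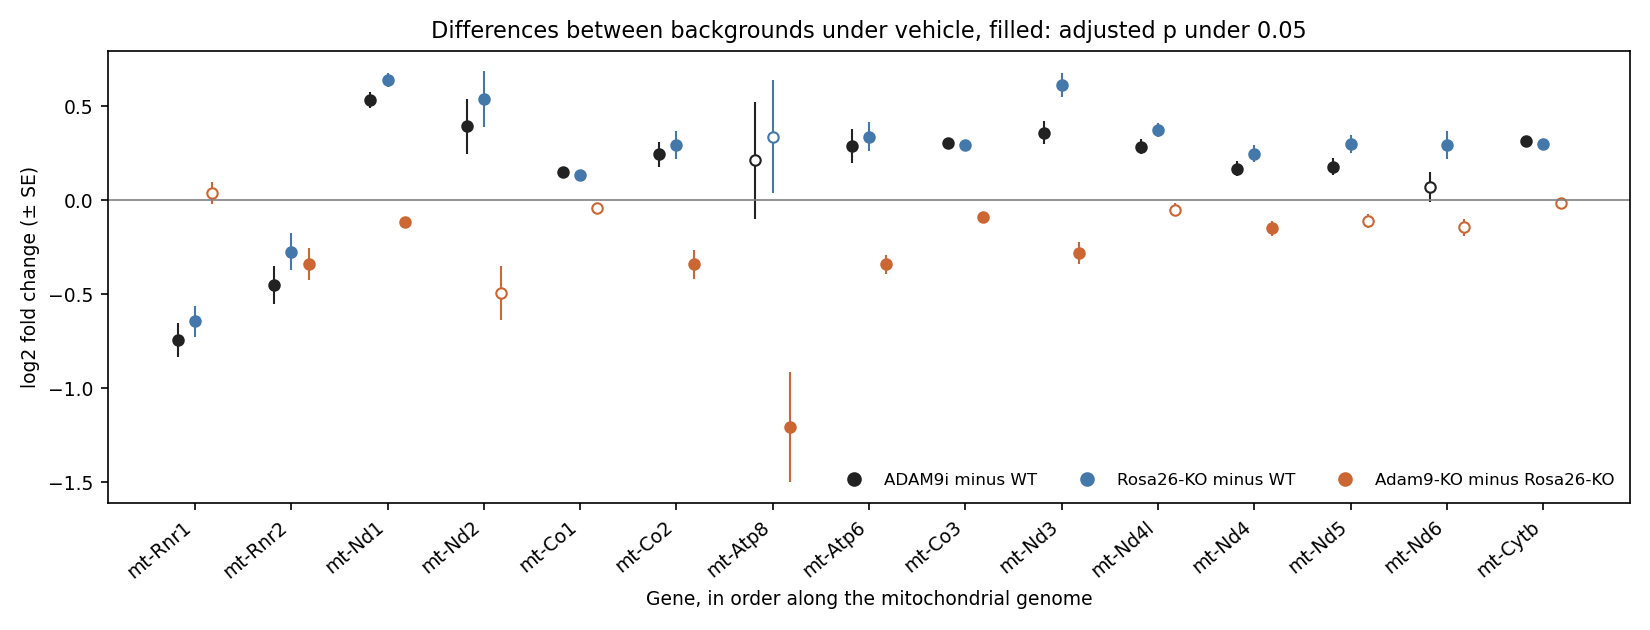
Log2 difference between backgrounds under vehicle (± SE from edgeR) for the 2 rRNAs and 13 mRNAs in genome order, filled where adjusted p is under 0.05. Against WT, the mRNAs lie above 0 and the rRNAs below in both ADAM9i and Rosa26-KO, and Adam9-KO lies below Rosa26-KO at mt-Atp8, mt-Atp6 and mt-Co2.

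The difference between the responses of ADAM9i and WT (ADAM9i minus WT) passed the threshold below 0 in 6 of 13 mRNAs and above 0 in 0, where 27.8% of all genes were above and 28.3% below, and the median was -0.19 against -0.04 over all genes. mt-Cytb had -0.44 ± 0.036 (adjusted p = 2.75e-09), from a WT change of 0.41 and an ADAM9i change of -0.03. mt-Co1 had -0.29 ± 0.030 (adjusted p = 8.7e-08), mt-Nd4l -0.29 ± 0.054, mt-Nd5 -0.25 ± 0.064, mt-Co3 -0.21 ± 0.035 and mt-Nd4 -0.18 ± 0.056. The difference at mt-Nd1, -0.14 ± 0.061, missed the threshold (adjusted p = 0.073), as did that at mt-Rnr1 (-0.10, adjusted p = 0.529). Both responses are set against vehicle groups that themselves differ: ADAM9i vehicle lay above WT vehicle in 11 of 13 mRNAs. The count was 11 below 0 with library size alone as the scaling. The share of all genes called under that scaling is not given here.

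Between the edited backgrounds the difference of responses (Adam9-KO minus Rosa26-KO) passed above 0 in 1 mRNA, mt-Nd1, and below 0 in 4 of 13 (mt-Co1, mt-Nd5, mt-Nd6 and mt-Cytb), where 20.1% of all genes were above and 17.8% below, with a median of 0.01 against -0.02 over all genes. Without Rosa26-KO rhCTHRC1 replicate 3 the majority turned, with 3 above 0 and 2 below. mt-Nd1 had 0.25 ± 0.036 (adjusted p = 2.39e-05) and mt-Rnr1 -0.59 ± 0.083 (adjusted p = 5.2e-05). mt-Cytb had -0.20 ± 0.031 (adjusted p = 4.04e-05), mt-Co1 -0.14 ± 0.029 (adjusted p = 0.000653), mt-Nd6 -0.20 ± 0.066 (adjusted p = 0.0284) and mt-Nd5 -0.14 ± 0.052 (adjusted p = 0.0364). mt-Tl1 had 0.71 ± 0.121 (adjusted p = 0.000103). The calls of mt-Nd5 and mt-Nd6 were lost without any 1 of 8 and of 9 of the 12 libraries (mt-Nd5 -0.14 to -0.11, adjusted p = 0.0686 to 0.196; mt-Nd6 -0.21 to -0.15, adjusted p = 0.0516 to 0.157). Only Rosa26-KO rhCTHRC1 replicate 1, Rosa26-KO vehicle replicate 3, Adam9-KO vehicle replicate 3 and Adam9-KO rhCTHRC1 replicate 1 could be left out without a loss at mt-Nd5. For mt-Nd6 these were Rosa26-KO rhCTHRC1 replicate 1, Adam9-KO vehicle replicate 3 and Adam9-KO rhCTHRC1 replicate 1. At these genes the Adam9-KO changes lay between -0.05 and 0.03, none of them called, whereas each of them had moved in Rosa26-KO.

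Nuclear genes whose products stabilise or degrade mitochondrial RNA were mostly lower with rhCTHRC1 in WT and Rosa26-KO. Of 15 genes of mitochondrial RNA stability and decay, 1 rose and 13 fell in WT (median -0.75), and 0 rose and 12 fell in Rosa26-KO (median -0.51). Over all genes 30.8% fell in WT and 23.3% in Rosa26-KO, with a median of 0.03 in both. Under vehicle 4 of the 15 were higher and 6 lower in ADAM9i than in WT (median -0.17). There 29.9% of all genes were higher and 27.5% lower. The lists were chosen with earlier results of these data known. Lrpprc, which binds and stabilises mitochondrial mRNAs, was at 356.7, 357.0 and 355.4 CPM in WT vehicle and 115.9, 126.6 and 117.5 CPM with rhCTHRC1 (-1.59, adjusted p = 4.39e-17). In Rosa26-KO Lrpprc fell from 172.6, 170.1 and 184.6 CPM to 116.7, 120.9 and 120.4 CPM (-0.56, adjusted p = 1.85e-09). It stayed at 159.4, 174.8 and 170.5 CPM against 170.3, 172.4 and 179.2 CPM in Adam9-KO, where the libraries overlap. Treated WT libraries thus reached the level of treated Rosa26-KO libraries, below every vehicle library. Under vehicle the log2 difference of Lrpprc from WT was -1.06 in ADAM9i and -1.02 in Rosa26-KO. Tbrg4, of the same list, fell by 1.63 in WT and by 0.94 in Rosa26-KO, Pde12, which removes poly(A) tails from mitochondrial mRNAs, by 1.87 in WT, and Rexo2, an oligoribonuclease, by 0.77 in Rosa26-KO.

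Of 10 genes of mitochondrial transcription 1 rose and 4 fell in WT (median -0.16), near the 30.8% of all genes that fell there, and 0 rose and 5 fell in Rosa26-KO (median -0.25; 23.3% of all genes). Tfam, which packs mitochondrial DNA and starts its transcription, was at 100.9 CPM on average in WT vehicle and 57.3 CPM with rhCTHRC1 (-0.83, adjusted p = 9.96e-12), and at 68.6 and 53.8 CPM in Rosa26-KO (-0.35, adjusted p = 1.5e-05). Tfb2m fell by 1.22 and 0.33 and Polrmt by 0.80 and 0.32 in WT and Rosa26-KO, and Mterf3, which restrains mitochondrial transcription, by 1.37 in WT. Under vehicle Tfam, Tfb2m and Polrmt were also lower than in WT. They had -0.65, -0.83 and -0.61 in ADAM9i and -0.56, -0.75 and -0.69 in Rosa26-KO on the log2 scale. The WT changes are thus set against a vehicle group that itself differs. Tfb1m, an rRNA methyltransferase, fell by 0.49 in Rosa26-KO. Of 17 genes of RNA processing and modification 3 rose and 8 fell in WT (median -0.29), and 3 and 7 in Rosa26-KO (median -0.13), beside the same shares of all genes. Nsun2, an RNA methyltransferase that acts on tRNAs, fell by 2.45 and 0.91, and Pus1, a pseudouridine synthase, by 1.78 and 0.83. Trmt10c, a part of the enzyme that cuts the front end of mitochondrial tRNAs, fell by 1.62 in WT, and Elac2, which cuts their other end, by 0.70 in Rosa26-KO.

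Of 10 genes of mitochondrial DNA replication 1 rose and 8 fell in WT (median -0.39), and 2 and 6 in Rosa26-KO (median -0.24). Over all genes 32.2% rose and 30.8% fell in WT, and 22% rose and 23.3% fell in Rosa26-KO. Under vehicle 2 of the 10 were higher and 4 lower in ADAM9i than in WT (median -0.16). Twnk, the replicative helicase, fell by 0.78, Top1mt, a topoisomerase, by 0.59 and Mgme1, a nuclease, by 0.55 in WT. Polg, the replicative polymerase, fell by 0.37 in Rosa26-KO and Ssbp1, the single-strand binding protein, by 0.29, while Primpol, a primase and polymerase, rose by 0.53. Of 7 regulators of mitochondrial biogenesis 0 rose and 6 fell in WT (median -1.06), and 1 rose and 4 fell in Rosa26-KO (median -0.27). Among them Pprc1 fell by 1.59 and 0.76, Nrf1 by 1.23 and 0.47 and Gabpb1 by 1.36 and 0.62. Under vehicle 0 of the 7 regulators were higher and 6 lower in ADAM9i than in WT (median -0.57). There 29.9% of all genes were higher and 27.5% lower. Ppargc1a, a coactivator of mitochondrial biogenesis, fell by 1.06 in WT, from 133.7, 121.1 and 145.4 CPM to 68.9, 65.2 and 59.8 CPM, and had -0.05 in Rosa26-KO (adjusted p = 0.555). The treated WT level of Ppargc1a was 64.6 CPM on average, above the means of the other vehicle groups (38.1 to 57.4 CPM).

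Nuclear-encoded subunits of the same complexes moved both ways in WT, where 32.2% of all genes rose and 30.8% fell. In Rosa26-KO more of them fell than rose, where 22% of all genes rose and 23.3% fell. For complex IV 5 rose and 0 fell of 11 in WT (median 0.15), among them Cox7a2 (0.53), Cox6b1 (0.46) and Cox6a1 (0.18), and 1 rose and 9 fell in Rosa26-KO (median -0.19), among them Ndufa4 (-0.33), Cox5a (-0.32) and Cox7b (-0.32). For complex I 9 rose and 15 fell of 36 in WT (median -0.13), with Ndufa8 at 0.78, Ndufa10 at -0.75 and Ndufb8 at -0.55, and 2 and 16 in Rosa26-KO (median -0.11), with Ndufa9 and Ndufb7 both at -0.40 and Ndufa6 at 0.46. For complex III 4 rose and 4 fell of 9 in WT, with Uqcrh at 0.64, Cyc1 at -0.83 and Uqcrq at -1.85, and 1 and 6 in Rosa26-KO, with Cyc1 at -0.52, Uqcrq at -0.60 and Uqcrc2 at -0.25. For ATP synthase 2 rose and 7 fell of 15 in WT, and 0 and 12 in Rosa26-KO. Atp5b, the catalytic beta subunit, fell by 0.31 and 0.41 and Atp5pb by 0.69 and 0.26. Atp5g1 fell by 1.52 in WT and Atp5a1 by 0.23 in Rosa26-KO. Under vehicle ADAM9i lay above WT in 15 subunits of complex I, 4 of III, 10 of IV and 10 of ATP synthase. It lay below WT in 4, 3, 0 and 3, where 29.9% of all genes were above and 27.5% below.

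In ADAM9i the called genes of these lists were all higher, where 2.66% of all genes were higher and 1.32% lower. They were 1 of processing (Trmt10c, 0.30), 1 of stability (Tbrg4, 0.24), 1 of replication (Top1mt, 0.37), and 2 each of complex III (Uqcrh, 0.17, and Uqcrc1, 0.12), complex IV (Cox7a2, 0.24, and Cox5a, 0.20) and ATP synthase (Atp5b, 0.11, and Atp5a1, 0.10). In Adam9-KO 0 members of these lists were called in edgeR. Which way these nuclear genes and the mitochondrial mRNAs act on each other was not tested.

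**Figure D5:**
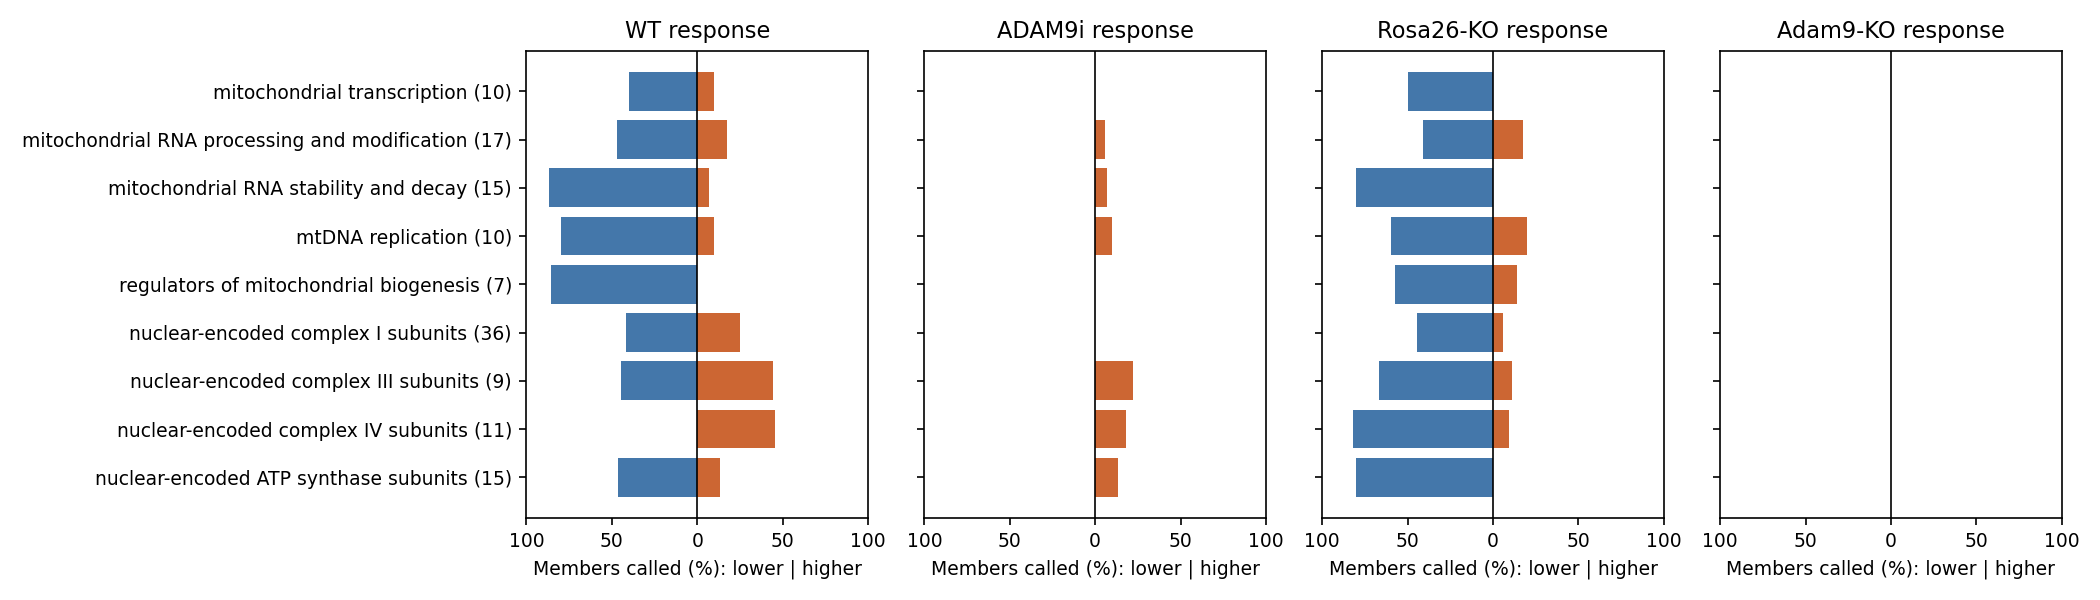
Share of the tested members (number in brackets) of nuclear gene lists that were called lower (left) or higher (right) with rhCTHRC1 in 4 backgrounds, in %. In WT 13 of 15 and in Rosa26-KO 12 of 15 stability and decay genes lie on the lower side, and the Adam9-KO panel is empty.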

How the data were processed

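Per the labels' protocols, the library kit was TruSeq Stranded Total RNA, with paired reads. Nothing read here states how rRNA was removed, whether strand was used or how reads with several matches were counted. GRCm38 is the build, and DESeq2, StringTie and HISAT2 are the tools, per the submitters' processing notes, with no versions. The deposited table holds raw counts per gene and library, and FPKM that the authors computed, for 33034 genes. All results use the counts, and FPKM serves for levels between genes and 1 alternative. No libraries were identical.

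Counts were tested in edgeR (version 4.0.16; R version 4.3.3, limma version 3.58.1, data.table, version 1.17.8): filterByExpr, TMM, group means, robust quasi-likelihood F test, two-sided, Benjamini-Hochberg over all genes, threshold 0.05. In simulated counts 1.25-fold changes were called in 33.8% of such genes for the WT response and 28.2% for Rosa26-KO. False calls were 11 and 5. Far fewer genes were changed there than were called in the data, and changes of this size can be missed. WT with ADAM9i (18816 genes), Rosa26-KO with Adam9-KO (18594) and, for Rosa26-KO minus WT, all 24 libraries (19891) were fitted apart. SE is the size of the log2 change divided by the square root of F. Shares were compared by exact permutation (SciPy 1.17.1, pandas 2.3.3, numpy 2.4.6, Python 3.11.15), and over 4 backgrounds by all 160000 arrangements within backgrounds. Figures used matplotlib 3.10.9. A count of 0 allows up to 3 counts, a limit that covers counting error only. Values after ± are the SD between libraries or the SE from edgeR.

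Members and lists were chosen with earlier results of these data known. Named are all 13 mRNAs and 2 rRNAs, the 4 tRNAs of highest level, tRNAs called in at least 1 response, of each nuclear list and response up to 3 called genes of smallest p, Polrmt, Tfam, Tfb2m, Lrpprc, Ppargc1a and Adam9. The chromosome 1 copies, mt-Th, mt-Ts2, mt-Tl2, mt-Ta, mt-Tn and mt-Tc are outside this rule. Alternatives were relative log expression factors, library size alone, DESeq2 1.42.0, limma on log2(FPKM + 1), no filter, 1 fit of all libraries, a replicate block, each library left out, other vehicle libraries for WT, and for shares another denominator or the deposited FPKM. Leaving out or adding the chromosome 1 copy was chosen after seeing the data.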

Additional observations from a re-analysis of the deposited data

Results flagged for a closer look

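The results here are differences between the responses of backgrounds that passed edgeR's adjusted p threshold, in 21 cases, and no explanation was weighed. Between ADAM9i and WT (ADAM9i minus WT, log2) they are mt-Cytb (-0.44), mt-Co1 (-0.29), mt-Nd4l (-0.29), mt-Nd5 (-0.25), mt-Co3 (-0.21) and mt-Nd4 (-0.18), and the tRNA genes mt-Tt (-1.42), mt-Tw (-0.71), mt-Tp (-0.52), mt-Te (-0.42) and mt-Ts1 (-0.39), with adjusted p from 2.75e-09 to 0.0244. In all of these the WT change was above 0. The call of mt-Tw was lost without WT rhCTHRC1 replicate 3 (-0.57, adjusted p = 0.0576), that of mt-Tt without ADAM9i rhCTHRC1 replicate 1 (-1.33, adjusted p = 0.0511) or WT rhCTHRC1 replicate 2 (-1.28, adjusted p = 0.0556), and that of mt-Tp without ADAM9i vehicle replicate 3, WT vehicle replicate 1 or WT rhCTHRC1 replicate 1 or 2 (-0.48 to -0.43, adjusted p = 0.0573 to 0.0673).

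Between the edited backgrounds (Adam9-KO minus Rosa26-KO, log2) the differences are mt-Nd1 (0.25), mt-Tl1 (0.71), mt-Tw (0.66) and mt-Tk (1.75) above 0, and mt-Rnr1 (-0.59), mt-Ty (-0.66), mt-Cytb (-0.20), mt-Nd6 (-0.20), mt-Co1 (-0.14) and mt-Nd5 (-0.14) below 0, with adjusted p from 2.39e-05 to 0.0364. The call of mt-Ty was lost without Rosa26-KO rhCTHRC1 replicate 3 (-0.59, adjusted p = 0.0523). In Adam9-KO none of these genes was called, and in Rosa26-KO each was.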

How the results depend on the processing

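Of the called mRNAs, counts kept within 1.5 times of the reported count in all alternatives but these. In treated WT cells 9 (2 higher, 7 lower) were called against Rosa26-KO vehicle and 7 (2 higher, 5 lower) against ADAM9i vehicle. DESeq2 called 1 in ADAM9i. For ADAM9i minus WT responses library size alone and limma each called 11. For Adam9-KO minus Rosa26-KO, limma called 4 under vehicle, and for the responses no filter and 1 fit of all libraries each called 3. With 1 library left out the counts were 3 to 9 under vehicle and 3 to 5 for the responses, where the majority turned (3 higher, 2 lower) without Rosa26-KO rhCTHRC1 replicate 3. The shares of all genes called under these alternatives are not given here.

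Against Rosa26-KO vehicle the sign turned in treated WT cells for mt-Tl1 (-0.59), mt-Nd1 (-0.38), mt-Tw (-0.46), mt-Co2 (-0.21), mt-Atp6 (-0.19), mt-Co3 (-0.10), mt-Nd3 (-0.41), mt-Nd4l (-0.067), mt-Nd4 (-0.033), mt-Nd5 (-0.067), mt-Te (-0.14) and mt-Tt (-0.60), and against ADAM9i vehicle for mt-Tl1 (-0.43), mt-Nd1 (-0.29), mt-Tw (-0.34), mt-Co2 (-0.18), mt-Co3 (-0.12), mt-Nd3 (-0.17) and mt-Tt (-0.31). mt-Co3 in Rosa26-KO had 0.062 with library size alone and 0.060 with limma. The cause was not tested.

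The mRNA share in ADAM9i was 0.00114 points with genes outside the chromosome 1 copy, and -0.138 to 0.0471 with 1 library left out. With 1 left out, the Rosa26-KO mRNA share was 0.208 to 0.340, the rRNA share in Adam9-KO -0.00252 to 0.00637, and the tRNA share -0.000556 to 0.000994 in ADAM9i, -0.000776 to 0.000294 in Rosa26-KO and -0.000343 to 0.000623 in Adam9-KO. Over 4 backgrounds, without WT, the shares were 0.0568 (mRNA, p = 0.384), 0.00668 (rRNA, p = 0.0763) and 5.12e-05 (tRNA, p = 0.908), all by exact permutation, and the tRNA share was 0.000981 to 0.00137 with 1 library left out (exact permutation p = 0.0257 to 0.0874). Same-numbered libraries did not deviate together (36 pairs, correlations -0.0685 to 0.0654), so the numbers do not pair them. With the replicate block the mRNA share (0.302, exact p = 0.0586) and the tRNA share (0.00118, exact p = 0.117) missed the threshold, and 4 of 207 gene results lost and 3 gained a call. Low tRNA counts and the spread of mt-Atp8 limit what could be called.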
